A study of Mus musculus with 12 samples.

Results

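Zinc finger genes named Zfp with a number were examined in mouse retina, across a Pilrb1/2 knockout and 2 ages. Of 53028 genes in the deposited table, 368 were protein-coding Zfp-number genes on the primary chromosomes. Of these, 247 averaged at least 10 CPM, the authors' TMM-scaled expression unit, over the 12 libraries. The members were chosen by that average, so their levels are given as a description. All 247 reached 1 CPM in each of the 12 libraries and all passed the expression filter of the tests. Just inside the limit were Zfp991 (10.3 CPM), Zfp954 and Zfp982 (10.4 CPM each). Just outside were Zfp438 (9.97 CPM), Zfp454 (9.76 CPM) and Zfp879 (9.73 CPM).

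Poly(A) RNA of whole retina was sequenced in 4 groups of 3 libraries each. The groups were Pilrb1/2-/- retinas taken 28 days after birth (P28), Pilrb1/2+/+ retinas at P28, Pilrb1/2-/- retinas at 12 months and Pilrb1/2+/+ retinas at 12 months, called knockout and wild type below. The deletion was made by CRISPR in C57BL/6J zygotes and carried on by crosses to C57BL/6J mice. The series text lists Pilra together with Pilrb1/2 as deleted, while the labels name Pilrb1/2 alone, and neither says whether the libraries of a group are separate animals. Every p-value below therefore measures the spread between these libraries only.

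A C2H2 zinc finger is a short protein loop in which a pair of cysteines and a pair of histidines hold a zinc ion, and rows of such fingers read DNA, or less often RNA, base by base. Many carry a KRAB domain at their start, which recruits the corepressor TRIM28 (KAP1), the histone methyltransferase SETDB1 and HP1 proteins to silence chromatin, above all at retrotransposons. KRAB zinc finger genes lie in clusters of recent duplicates, while Zfp genes without KRAB include old, conserved regulators of promoters, RNA, ribosomes and mitosis.

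A profile of the KRAB A box matched 159 of the 247 members and did not match 88. A member without a match, such as Zfp420, may still carry a KRAB box in another annotation, so the split is one of profile matches. The median member had 11 fingers, 12 with a KRAB match and 7 without, and the most was 36. In 4 members, Zfp330, Zfp365, Zfp781 and Zfp839, the finger pattern was not found. Of the 247, 136 (55.1%) lay within 200 kb of another member. Chromosome 7 held 53 members, chromosome 17 held 34, chromosome 13 held 20 and chromosome 8 held 19. The GC content of a gene's most abundant transcript, known for 245 members, had a median of 43.6%, at 41.4% with a KRAB match and 48.0% without. It ran from 34.4 to 62.6%, and all expressed protein-coding genes had a median of 47.9%. In the coding sequence the median was 42.6% GC in KRAB members and 52.8% in the others, and at the last base of each codon 40.8% and 57.6%.

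The middle finger is shown for 3 members that rose and 3 that fell in the knockout at 12 months, because base composition ran along with the size of that change. The codons of the 2 cysteines and 2 histidines are in capitals, and each finger is read from the GENCODE M21 transcripts (GRCm38), 5′ to 3′ on the coding strand.
Zfp677 (rose; finger 9 of 16, chr17:21397913-21397975, plus strand): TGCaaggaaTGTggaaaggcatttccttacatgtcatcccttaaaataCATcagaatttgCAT
Zfp654 (rose; finger 3 of 5, chr16:64785435-64785497, minus strand): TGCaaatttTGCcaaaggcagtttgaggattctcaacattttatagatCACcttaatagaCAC
Zfp369 (rose; finger 3 of 5, chr13:65297319-65297381, plus strand): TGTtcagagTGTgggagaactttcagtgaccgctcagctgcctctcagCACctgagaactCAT
Zfp523 (fell; finger 4 of 7, chr17:28201278-28201346, plus strand): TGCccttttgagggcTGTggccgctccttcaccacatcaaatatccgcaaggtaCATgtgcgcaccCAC
Zfp692 (fell; finger 3 of 5, chr11:58313983-58314045, plus strand): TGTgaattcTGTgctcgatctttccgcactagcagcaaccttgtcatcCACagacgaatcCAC
Zfp637 (fell; finger 4 of 6, chr6:117845438-117845500, plus strand): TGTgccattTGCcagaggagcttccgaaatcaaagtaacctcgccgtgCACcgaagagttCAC
The fingers of Zfp677 and Zfp654 held 36.5% and 34.9% GC, and those of Zfp523 and Zfp637 held 56.5% and 52.4%. The finger of Zfp369 held 52.4% and that of Zfp692 held 49.2%, while the whole transcript held 44.0% GC for Zfp369 and 57.7% for Zfp692.

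The most frequent value in a low range of each library, taken as the worth of 1 read, was 0.0369 to 0.0640 CPM. A floor of 3 reads, which covers counting error only, was thus 0.111 to 0.192 CPM. Pilrb1 and Pilrb2, the targeted receptor genes, were listed at 0 in 11 of 12 libraries each, and Pilra was above 0 in all 12, so these values do not check the genotype labels. Rod, cone, bipolar and Mueller glia marker lists were all detected, with rod markers summing to 17598 to 38632 CPM. Lens genes summed to 4716 CPM in P28 knockout library 2 and to 1701 CPM or less elsewhere. Xist exceeded 100 CPM in P28 knockout libraries 2 and 3 and 12-month wild-type libraries 1 and 2, so sex, not stated in the labels, was unevenly spread over the groups.

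The members as a whole carried 13725 to 15491 CPM in P28 knockout, 13546 to 13624 CPM in P28 wild type, 15646 to 17180 CPM in knockout at 12 months and 13149 to 13756 CPM in wild type at that age. The totals of all genes were not equal on this scale, at 930482 to 1026501 CPM in P28 knockout, 960212 to 991368 CPM in P28 wild type, 1039560 to 1098515 CPM in 12-month knockout and 955821 to 985373 CPM in 12-month wild type. The median of the members' mean levels was 33.0 CPM, and the ratio of a member's highest to its lowest library had a median of 1.66. The most abundant was Zfp445 (ENSMUSG00000047036, GRCm38 chromosome 9, 122844529 to 122866006), a KRAB protein with 12 fingers that in mouse helps to keep parental imprints. It was at 683, 906 and 799 CPM in P28 knockout and 668, 682 and 638 CPM in P28 wild type. The 12-month values were 1006, 912 and 982 CPM in knockout and 735, 831 and 828 CPM in wild type. Knockout lay above wild type at both ages without overlap, and neither difference passed (log2 fold change 0.26, adjusted p = 0.186 at P28, and 0.28, adjusted p = 0.0505 at 12 months, limma with Benjamini-Hochberg adjustment).

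The next 7 by mean CPM were Zfp871, Zfp207, Zfp638, Zfp106, Zfp654, Zfp91 and Zfp292. Per length, on summed transcript RPKM, Zfp445 was again the highest at 177 RPKM, followed by Zfp207 at 140 and Zfp638 at 101. Zfp207 encodes BuGZ, which loads the checkpoint protein Bub3 onto kinetochores, and Zfp638 encodes a nuclear protein that in human cells silences unintegrated retroviral DNA. KRAB members had a median of 10.3 RPKM and the others 13.2 RPKM.

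At P28, 2 members rose in knockout and 1 fell, 0.810% and 0.405% of the set, where 1% and 0.491% of all 16486 genes tested did, 1.49% together. The median log2 fold change over the members was 0.02, against -0.01 over all genes tested. Zfp318 (chromosome 17), which in mouse B cells governs the choice between IgM and IgD transcripts, was at 160, 195 and 176 CPM in knockout and 119, 132 and 112 CPM in wild type. All 3 knockout libraries lay above all wild-type libraries (log2 fold change 0.54 ± 0.09, limma standard error, adjusted p = 0.0247). At 12 months Zfp318 averaged 143 ± 5.37 CPM in knockout and 138 ± 10.6 CPM in wild type (SD, n = 3 each), with overlap. The most abundant transcript of Zfp318, from which its GC and length were taken, has 573 bases.

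Zfp182, a KRAB member on the X chromosome, was at 48.9, 44.9 and 54.9 CPM in P28 knockout and 36.2, 35.9 and 33.1 CPM in P28 wild type. The groups did not overlap (log2 fold change 0.48 ± 0.09, limma adjusted p = 0.0339). It rose at 12 months too, at 54.5, 58.9 and 51.6 CPM in knockout against 38.1, 40.4 and 37.2 CPM in wild type (0.50 ± 0.09, limma adjusted p = 0.00346), and was the only member called in the same direction at both ages. The only P28 knockout library with low Xist, library 1, was at 48.9 CPM, and the only such 12-month wild-type library, library 3, at 37.2 CPM. With 1 library each, sex and genotype cannot be told apart for Zfp182. Zfp597, a KRAB member on chromosome 16, fell at P28, at 55.9, 59.8 and 60.6 CPM in knockout against 83.5, 74.7 and 76.3 CPM in wild type (-0.40 ± 0.08, limma adjusted p = 0.0366). At 12 months the order turned, with 88.1, 98.7 and 86.6 CPM in knockout and 76.5, 78.6 and 79.6 CPM in wild type, a difference that did not pass (adjusted p = 0.0516). Zfp597 shares 25.6% of its 31-base words with other genes, so its count may be split with them.

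In the same libraries 2 of 4 cone, 3 of 5 blood and 3 of 8 immediate early genes were lower in P28 knockout and 1 of 4 microglia genes was higher, and their part in the members' change was not tested. In all, 36 of the 247 had an unadjusted p under 0.05 at P28, where 3533 of all 16486 genes tested did. With smooth trends on transcript GC and length removed from each library, 2 members rose, Zfp318 and Zfp182, and 7 fell, where 0.797% and 0.896% of all genes did. The largest of those falls was that of Zfp597 (-0.62, limma adjusted p = 0.0104). The 3 calls became 18 without P28 knockout library 2, 5 without P28 knockout library 1, 1 without P28 wild-type library 2 and 0 without P28 knockout library 3 or P28 wild-type library 1 or 3. They were 1 when 12-month knockout library 1 or any 12-month wild-type library was left out, and 0 with a sex term.

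At 12 months, in knockout, 108 members rose and 19 fell, 43.7% and 7.69% of the set, where 16.1% and 23.5% of all genes tested did, 39.6% together. The median log2 fold change was 0.25 over the members, -0.03 over all genes tested and 0.03 over protein-coding genes of at least 10 CPM. Of the 247, 179 (72.5%) had a higher mean in knockout, and the groups did not overlap in 172, where 59.1% of all genes did not overlap. Effects ran from -1.18 for Zfp523 to 1.04 for Zfp991, and the next highest was 0.86 for Zfp966. The place of Zfp991 in the set rests on knockout libraries, and that of Zfp523 in part on wild-type libraries.

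The members that rose had a median transcript GC of 39.6% and those that fell 53.9%, and 81 of the 108 against 5 of the 19 matched the KRAB profile. Among the 63 members of at most 40% GC, 58 rose and none fell, with a median log2 fold change of 0.50. Among the 82 of 40 to 45%, 43 rose and none fell, with a median of 0.33. Of the 57 with 45 to 50%, 6 rose and 2 fell, and of the 43 above 50%, 1 rose, Zfp236, named after its value was seen, and 17 fell.

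**Figure D1:**
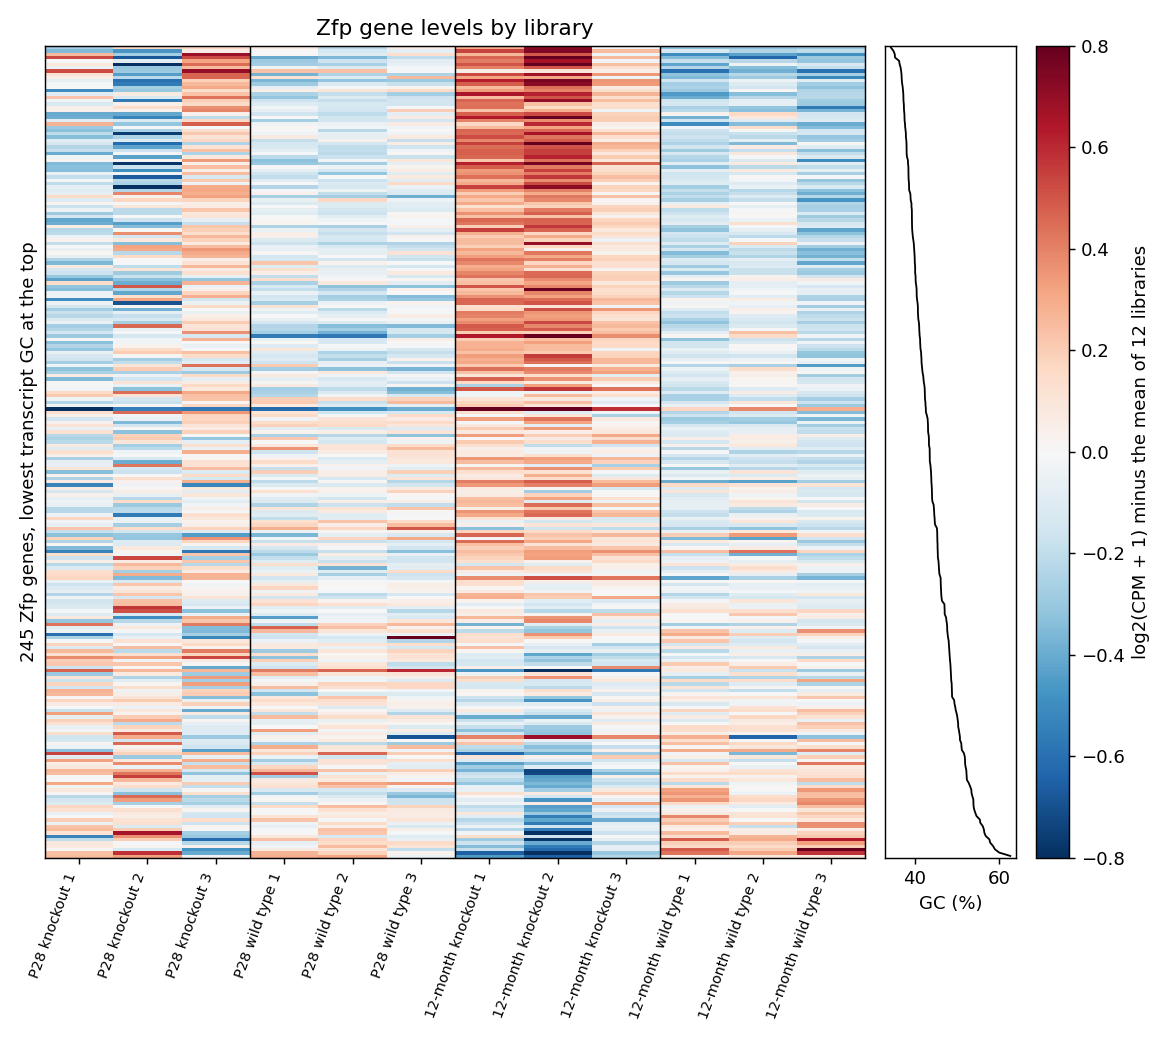
Levels of the 245 Zfp genes with a known transcript GC in the 12 libraries, as log2(CPM + 1) minus the gene's mean over all libraries, ordered by GC from 34.4% at the top to 62.6% at the bottom (line at the right). In the 12-month knockout libraries the low-GC genes at the top are red and the high-GC genes at the bottom blue. The 12-month wild-type libraries show the opposite, relative to the mean over all libraries, and the 3 P28 knockout libraries differ from each other.

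Protein-coding genes of at least 10 CPM showed the gradient too. Of those with at most 40% GC, 81.2% rose, against 92.1% of the members in that range. At 40 to 45% GC 52.2% rose, against 52.4% of the members. Above 50% GC 56.7% fell, against 39.5% of the members. Across the 245 members the 12-month log2 fold change had a Spearman correlation of -0.86 with GC, at -0.88 in 157 KRAB members and -0.83 in 88 others, and across 16191 genes tested it was -0.78. These are correlations across genes of the same 6 libraries, not across independent samples.

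**Figure D2:**
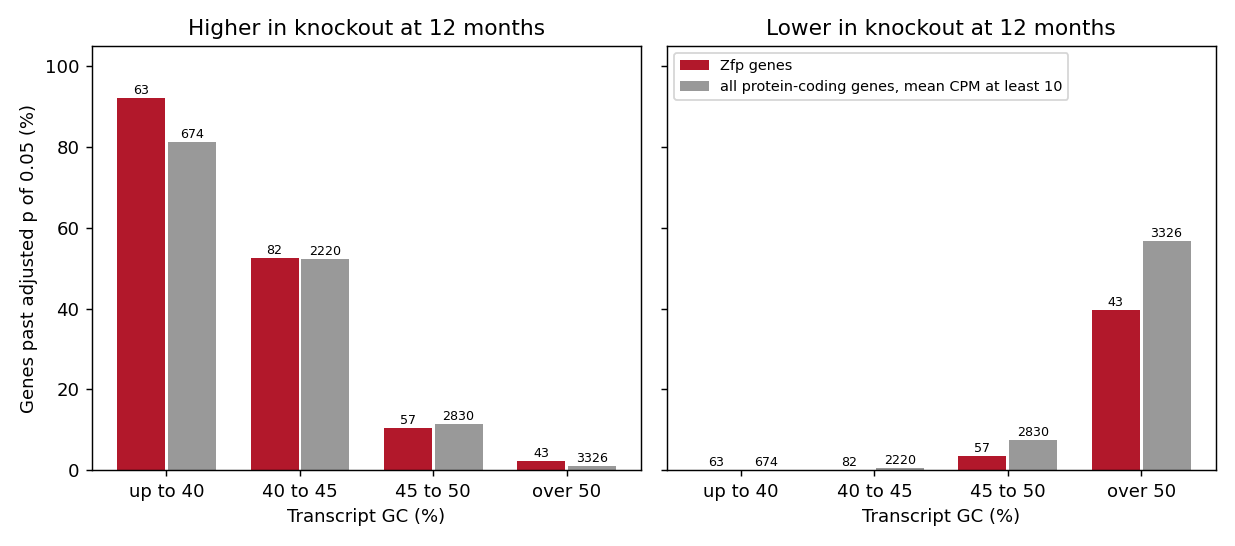
Percentage of genes past an adjusted p of 0.05 (limma) in knockout against wild type at 12 months, higher on the left and lower on the right, by transcript GC, for Zfp genes (red) and all protein-coding genes with a mean of at least 10 CPM (grey); the number over a bar is the number of genes in that range. Of the 63 Zfp genes with at most 40% GC 92.1% rose, and of the 43 above 50% GC 39.5% fell.

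The gradient was present library by library. The deviation of each member from its mean over 12 libraries correlated with GC at -0.80 to -0.52 in the knockout libraries of 12 months and at 0.42 to 0.70 in the wild-type ones. In P28 libraries the correlation was -0.46 to 0.46 in knockout and 0.16 to 0.55 in wild type. The signs are relative to that mean, so a shift in some libraries moves the others the opposite way. The median low-GC member deviated by 0.14 to 0.47 on the log2 scale in knockout at 12 months and by -0.26 to -0.11 in wild type. At P28 this median was -0.08, -0.22 and 0.20 in knockout libraries 1, 2 and 3 and -0.07, -0.14 and -0.04 in wild type. Knockout thus lay on one side of wild type in every library at 12 months and on both sides at P28.

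When the GC and length trends were removed, 7 members rose and 1 fell at 12 months, 7 of the 108 and 1 of the 19, where 3.54% and 3.04% of all genes did. The median over the members was then 0.01. The 7 were Zfp326, Zfp369, Zfp451, Zfp420, Zfp367, Zfp207 and Zfp281, and the 1 was Zfp41. Zfp420 and Zfp367 are named after their values were seen. Of the 7, Zfp369 matched the KRAB profile and the others did not. With the trends removed and a sex term added, no member passed.

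**Figure D3:**
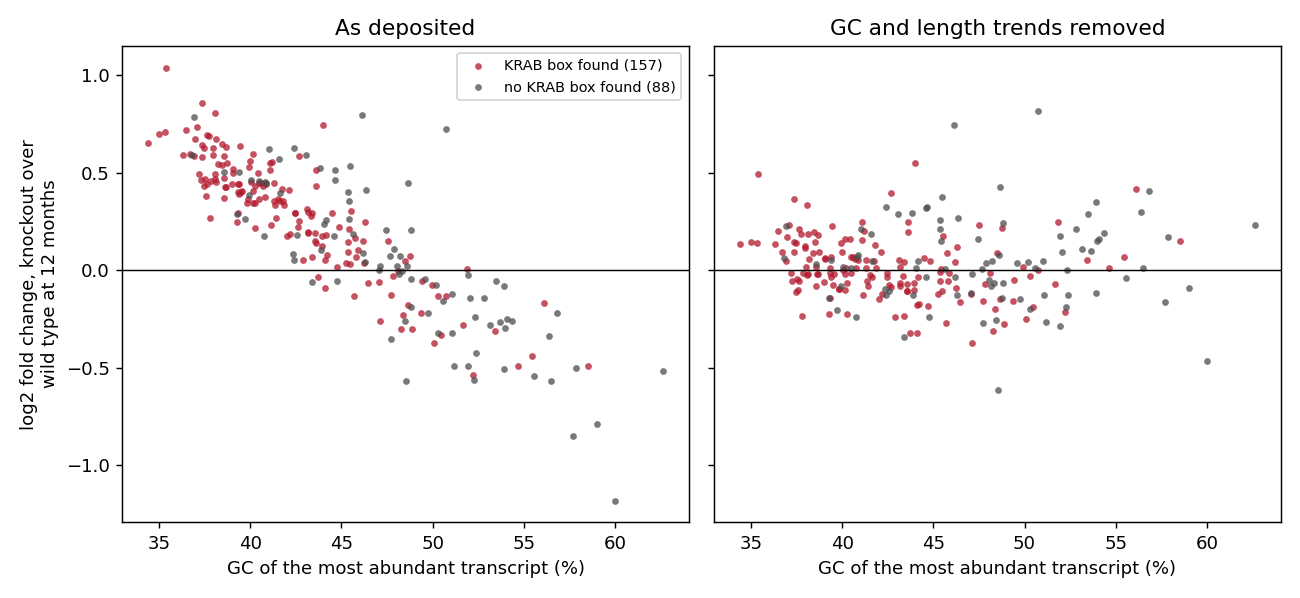
The log2 fold change of knockout over wild type at 12 months (vertical) against transcript GC (horizontal) for 157 Zfp genes that matched the KRAB profile (red) and 88 that did not (grey), on the deposited values (left) and with GC and length trends removed from each library (right). On the left both kinds fall with GC (Spearman -0.88 and -0.83), and on the right the points lie around 0.

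The mitochondrial share of all CPM was 9.94 to 12.6% in the 12-month knockout libraries, against 7.36 to 8.29% in their wild-type counterparts. Of 5 rod markers 4 were lower in 12-month knockout, summing to 17598 to 24418 CPM against 31490 to 38632 CPM in wild type. Of 4 cone markers 3 were lower (690 to 766 CPM in knockout and 977 to 1044 CPM in wild type), and of 5 blood markers all 5 were (4.33 to 9.94 CPM in knockout and 19.2 to 34.1 CPM in wild type). No rod, cone or blood marker was higher, while 2 of 3 endothelial, 2 of 4 pigment epithelium and 2 of 4 microglia markers were lower. Mueller glia markers, of which 1 of 4 was lower, summed to 2057 to 2318 CPM in knockout and 2340 to 2589 CPM in wild type. The part of these in the members' change was not tested. In RNA of whole tissue, fewer cells of a type and less RNA per cell cannot be told apart.

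Among the largest rises, Zfp677 (ENSMUSG00000062743, GRCm38 chromosome 17, 21383748 to 21399265), a KRAB member with 16 fingers, was at 18.1, 24.7 and 14.98 CPM in 12-month knockout and 10, 9.20 and 12.1 CPM in 12-month wild type. The groups did not overlap, and knockout library 2 was the highest (log2 fold change 0.80 ± 0.18, limma adjusted p = 0.00610). At P28 it was at 10.9, 7.50 and 9.97 CPM in knockout and 10.8, 10.8 and 12.6 CPM in wild type, with overlap. Zfp654, among the abundant members above, was at 416, 461 and 367 CPM in 12-month knockout and 231, 247 and 240 CPM in 12-month wild type, without overlap (0.79 ± 0.17, limma adjusted p = 0.00528). Zfp871, the next after Zfp445 in mean CPM, was at 568, 554 and 506 CPM in 12-month knockout and 374, 381 and 346 CPM in 12-month wild type, again apart (0.56 ± 0.10, limma adjusted p = 0.00293). Without the trends, Zfp677 was at 0.34 and Zfp654 at 0.23, and neither passed.

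Zfp326 (ENSMUSG00000029290, chromosome 5, 105876565 to 105915818) encodes ZIRD, known in human cells to couple RNA polymerase II to splicing. It was at 88.0, 97.0 and 91.2 CPM in 12-month knockout and 50.1, 56.2 and 51.9 CPM in 12-month wild type. All knockout libraries lay more than 30 CPM above all wild-type libraries (log2 fold change 0.79 ± 0.13, limma adjusted p = 0.00283). Its transcript GC of 46.1% was above the median of the set, and with the trends removed the value was 0.74 (limma adjusted p = 0.0133).

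Zfp369 (ENSMUSG00000021514, chromosome 13, 65278814 to 65304221), a relative of the neurotrophin receptor interactor NRIF, was at 93.7, 98.9 and 84.0 CPM in 12-month knockout and 53.4, 52.1 and 57.9 CPM in 12-month wild type. The groups did not overlap (log2 fold change 0.75 ± 0.10, limma adjusted p = 0.00237), and with the trends removed the value was 0.55 (adjusted p = 0.0135). At P28 it was at 73.6, 72.1 and 86.0 CPM in knockout and 60.6, 71.0 and 59.9 CPM in wild type, again without overlap, and did not pass (0.27, adjusted p = 0.153).

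Zfp991 and Zfp966 had the largest rises of all members, and their counts are uncertain. Zfp991 was at 13.5, 21.9 and 11.5 CPM in 12-month knockout and 7.26, 5.79 and 7.58 CPM in 12-month wild type. All 6 wild-type libraries of both ages lay below 10 CPM, so Zfp991 reached the mean of 10.3 CPM through knockout libraries. Its size of change thus depends in part on how members were chosen. Zfp982, just inside the limit at 10.4 CPM, also entered through knockout libraries, as its 6 wild-type libraries lay at 7.97 to 9.53 CPM. Of the 31-base words of Zfp991 and Zfp966, 88.0% and 93.9% occur in other genes, so their reads may be split with those genes. Zfp966 was at 78.7, 76.6 and 60.2 CPM in 12-month knockout and 36.0, 38.9 and 42.2 CPM in 12-month wild type, without overlap (0.86 ± 0.12, limma adjusted p = 0.00237). Of 44 members that share at least 20% of such words, 26 rose and none fell, with a median of 39.4% GC. Of the other 203, at a median of 44.1% GC, 82 rose and 19 fell. Over all genes tested 16.1% rose and 23.5% fell, while 81.2% of expressed protein-coding genes at 40% GC or less rose. Once both trends were taken out, none of 43 sharing members passed, at a median of 0.07. Among 202 others 7 then rose and 1 fell. Whether shared words matter apart from GC was not tested.

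Of the 19 members that fell, 14 did not match the KRAB profile. Zfp523 (ENSMUSG00000024220, chromosome 17, 28177129 to 28205886), the mouse counterpart of human ZNF76 and a relative of the promoter-binding Zfp143, was at 5.88, 3.48 and 7.74 CPM in 12-month knockout and 13.6, 12.3 and 15.1 CPM in 12-month wild type. The groups did not overlap, with knockout library 2 the lowest (log2 fold change -1.18 ± 0.25, limma adjusted p = 0.00504). At P28 it was at 11.8, 15.2 and 7.15 CPM in knockout and 12.0, 11.2 and 10.01 CPM in wild type, with wide overlap. All its wild-type libraries lay above the limit of 10 CPM and all its 12-month knockout libraries below it. The size of its change thus depends in part on how members were chosen. Its transcript held 60.03% GC, and with the trends removed the value was -0.47 and did not pass.

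Zfp598 encodes the ubiquitin ligase that marks collided ribosomes. It was at 12.6, 9.08 and 13.8 CPM in 12-month knockout and 20.8, 16.8 and 26.0 CPM in 12-month wild type, without overlap (-0.79 ± 0.19, limma adjusted p = 0.00755). At 59.0% GC, it moved to -0.09 with the trends removed. Zfp692 (-0.85), Zfp637 (-0.56) and Zfp319 (-0.54) fell as well, at adjusted p of 0.00837, 0.0450 and 0.00875, and were at -0.17, -0.19 and -0.04 with the trends removed. Zfp41 was at 8.66, 5.37 and 7.97 CPM in 12-month knockout and 13.0, 10.8 and 9.87 CPM in 12-month wild type, and its fall of -0.57 ± 0.16 (limma adjusted p = 0.0153) was -0.61 once the trends were taken out (adjusted p = 0.0411).

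**Figure D4:**
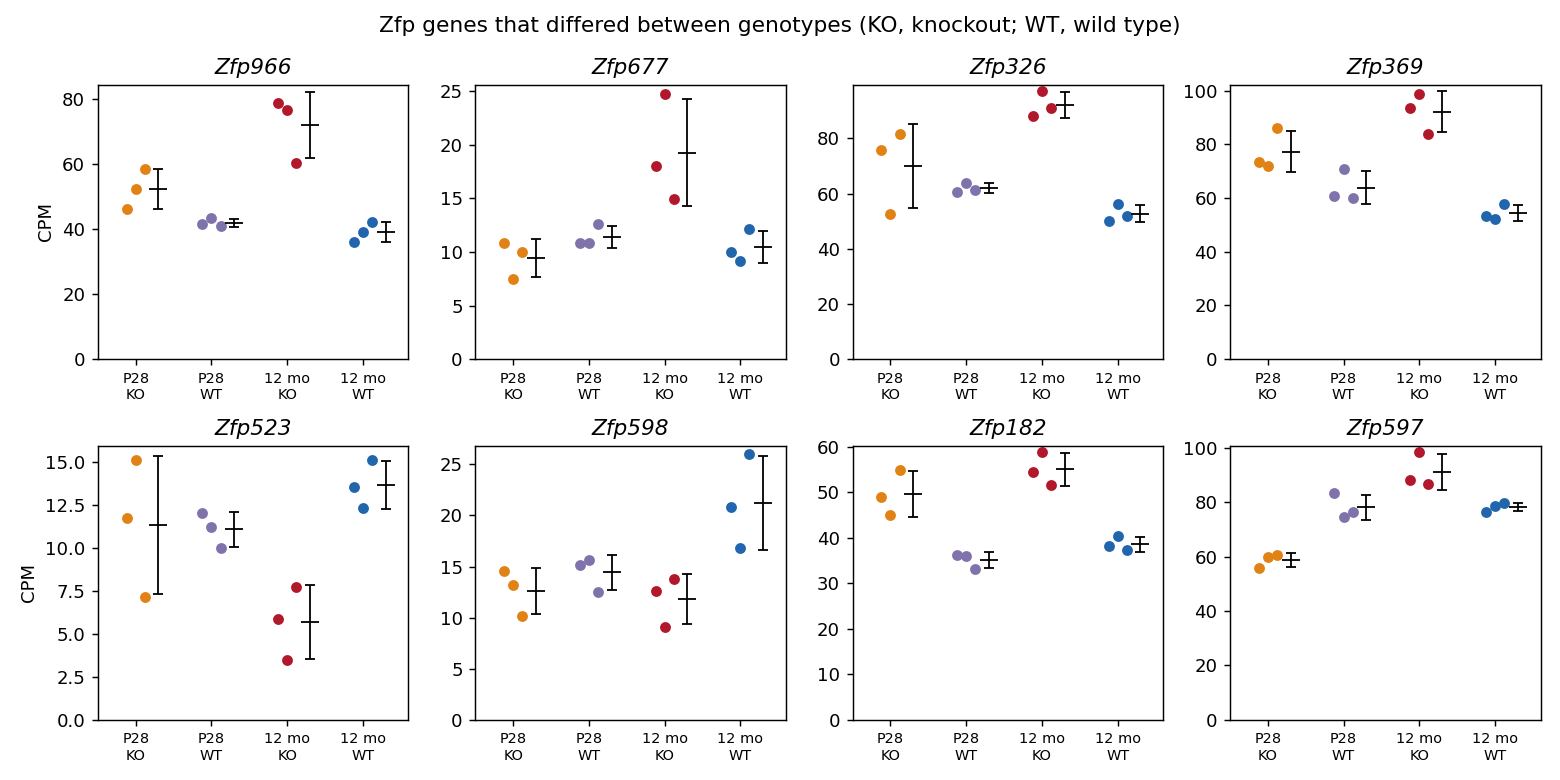
CPM of 8 Zfp genes in each library (points), with the mean and SD of 3 libraries (bars), for P28 knockout, P28 wild type, 12-month knockout and 12-month wild type. Zfp966, Zfp677, Zfp326 and Zfp369 are higher and Zfp523 and Zfp598 lower in 12-month knockout without overlap, Zfp182 is higher in knockout at both ages, and Zfp597 is lower in knockout at P28.

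The 127 calls at 12 months became 65 without 12-month knockout library 2, 77 and 84 without 12-month wild-type libraries 3 and 1, and 69 in the 8 libraries without high Xist. They were between 95 and 153 when any other library was left out.

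Counts per chromosome are given beside base composition, and no difference between chromosomes was tested. Of all expressed protein-coding genes, 81.2% of those at 40% GC or less and 11.5% of those at 45 to 50% rose. Of the 20 members on chromosome 13, with a median of 39.2% GC, 16 rose and 1 fell at 12 months. Of the 34 on chromosome 17, at 38.6% GC, 24 rose and 2 fell, while of the 53 on chromosome 7, at 46.2% GC, 11 rose and 7 fell. All 4 X-linked members, at a median of 40.3% GC, rose, with Zfp711 the largest at 0.59, and 0 rose with the trends removed. At 12 months Xist was high in wild-type libraries 1 and 2 and in no knockout library, so sex ran in part with genotype. On chromosome 6, at 50.3% GC, 2 of 13 rose and 4 fell.

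KRAB and other members can be set side by side within ranges of GC. At 40 to 45% GC, 30 of 60 KRAB members and 13 of 22 others rose. At 45 to 50% GC, 0 of 29 KRAB members and 6 of 28 others rose, and 1 of each kind fell. At 40% GC or less, 51 of 56 KRAB members and all 7 others rose, and above 50% GC, 4 of 12 KRAB members and 13 of 31 others fell. Of all protein-coding genes of at least 10 CPM, 81.2% rose at 40% GC or less. Of those at 40 to 45% GC 52.2% rose, and of those at 45 to 50% 11.5% rose and 7.56% fell. Above 50% GC 56.7% of them fell. Over all GC values the median log2 fold change was 0.34 in KRAB members and 0.02 in the others. With GC and length trends removed it was -0.01 and 0.03.

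The counts of the role lists below stand beside 16.1% of all genes tested that rose and 23.5% that fell at 12 months, and the lists are too short to read a share from. Of 8 listed genes that act on RNA or ribosomes, 6 were members, and at 12 months 2 rose and 2 fell. Zfp326 and Zfp638 (0.62 ± 0.12, limma adjusted p = 0.00328) rose, and Zfp598 and Zfp346 fell. Zfp346, a double-stranded RNA-binding protein, was at 31.1, 27.0 and 32.1 CPM in knockout and 40.4, 38.4 and 43.1 CPM in wild type, without overlap (-0.42 ± 0.11, limma adjusted p = 0.00940). Zfp622, a ribosome maturation factor, was at -0.36 and Zfp106, an RNA-binding protein needed by motor neurons in mouse, at 0.00, and neither passed.

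All 4 listed genes of mitosis, ubiquitin and SUMO were members and 3 rose at 12 months. Zfp207 was at 455, 489 and 438 CPM in knockout and 307, 323 and 331 CPM in wild type. The groups were over 100 CPM apart (0.52 ± 0.10, limma adjusted p = 0.00342), and with the trends removed the value was 0.29 (adjusted p = 0.0353). Zfp451, a SUMO ligase, was at 130, 141 and 133 CPM in knockout and 98.8, 85.8 and 94.4 CPM in wild type (0.53 ± 0.10, limma adjusted p = 0.00352). The ubiquitin ligase gene Zfp91 rose by 0.45 (adjusted p = 0.0162), while Zfp746, which encodes the parkin substrate PARIS, was at -0.17 and did not pass.

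Of 13 listed genes of chromatin and promoter binding, 12 were members, and 3 rose and 2 fell at 12 months. Zfp281, a regulator of pluripotent cells, was at 216, 231 and 181 CPM in knockout and 139, 141 and 133 CPM in wild type, without overlap (0.59 ± 0.10, limma adjusted p = 0.00298). Its relative Zfp148 rose by 0.39 (adjusted p = 0.0204) and was at -0.08 with the trends removed. Zfp644, whose human counterpart is linked to high myopia, rose by 0.57 (adjusted p = 0.00313). Zfp384 fell by 0.32 and Zfp592 by 0.49 on the log2 scale (adjusted p = 0.0267 and 0.0244). Zfp410, which in mouse and human cells activates Chd4, lay between 37.2 and 43.6 CPM in all 12 libraries.

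Of 9 listed genes of the nervous system, 7 were members and 1 rose at 12 months. That was Zfp292, at 323, 313 and 285 CPM in knockout and 224, 235 and 211 CPM in wild type (0.46 ± 0.10, limma adjusted p = 0.00462), and at 0.01 with the trends removed. Zfp521, Zfp536, Zfp608, Zfp609 and Zfp24 had values between -0.24 and 0.21 and did not pass. Of 5 listed eye disease genes 1 was a member, Zfp644.

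No member passed the test of the difference between the 12-month and P28 knockout effects, where 0.176% of all genes tested did (0.0789% higher and 0.0971% lower). An unadjusted p under 0.05 was found for 99 of the 247 members and for 4397 of all 16486 genes tested. The smallest adjusted p was 0.0520, for Zfp597, with a difference of 0.62 ± 0.12. With the trends removed no member passed either, where 0.00618% of all genes did in each direction. The median difference was 0.21, positive in 177 of 247. The mean was higher in knockout at both ages in 100 members and lower at both in 38. In 79 it was lower at P28 and higher at 12 months, and in 30 the reverse. Without P28 knockout library 3, 70 members passed, without 12-month knockout library 3, 23 did, and without P28 knockout library 2, 5 did.

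From P28 to 12 months, 66 members rose and 17 fell in knockout, 26.7% and 6.88% of the set, where 13.3% and 13.9% of all genes tested did, 27.2% together. The comparison uses the same 12-month knockout libraries as the one between genotypes, so their values are not independent. Members that rose had a median of 40.7% GC and those that fell 51.7%. With the trends removed, 38 rose and 14 fell, where 11.8% and 9.92% of all genes did.

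In wild type 2 members rose with age and 4 fell, 0.810% and 1.62% of the set, where 3.65% and 1.75% of all genes tested did, 5.4% together. After removal of the trends 3 rose and 12 fell, where 4.69% and 3.19% did. The difference between the genotypes in the change with age is the difference tested above, which no member passed. The median log2 fold change was -0.04, against 0.01 over all genes tested. Zfp934 and Zfp950 rose and Zfp41 and Zfp286 fell in both genotypes. The comparisons within each genotype share no library.

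Zfp934 (ENSMUSG00000074865, GRCm38 chromosome 13, 62479827 to 62571199), a KRAB member with 11 fingers, showed the largest rise with age. In knockout it was at 30.0, 34.7 and 23.7 CPM at 12 months and 8.19, 10.3 and 10.1 CPM at P28. In wild type it was at 17.6, 20.5 and 19.2 CPM at 12 months and 9.75, 10.8 and 11.5 CPM at P28. Both ages stood apart in both genotypes (log2 fold change 1.52 ± 0.14, limma adjusted p = 3.17e-05 in knockout, and 0.78 ± 0.14, limma adjusted p = 0.00678 in wild type). With the trends removed the values were 1.32 and 0.82, and both passed. The gene shares 45.04% of its 31-base words with other genes, so its level is uncertain.

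Zfp950, a KRAB member on chromosome 19 with 17 fingers, shares 5.53% of its words. In knockout it was at 179, 200 and 148 CPM at 12 months and 92.5, 103 and 104 CPM at P28. In wild type it was at 116, 128 and 112 CPM at 12 months and 77.0, 76.6 and 94.5 CPM at P28. All 12-month libraries lay above all P28 libraries (0.80 ± 0.12, limma adjusted p = 0.000792 in knockout, and 0.52 ± 0.12, limma adjusted p = 0.0235 in wild type). Both values, 0.52 and 0.54 after removal of the trends, passed.

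Zfp41 fell with age by 1.03 ± 0.16 in knockout (limma adjusted p = 0.00103) and by 0.62 ± 0.16 in wild type (limma adjusted p = 0.0412) on the log2 scale. It was at 8.66, 5.37 and 7.97 CPM at 12 months and 17.4, 15.01 and 15.02 CPM at P28 in knockout, and at 13.0, 10.8 and 9.87 CPM at 12 months and 16.7, 17.4 and 19.2 CPM at P28 in wild type. Its P28 libraries all lay above the limit of 10 CPM for members and its 12-month knockout libraries all below it. Zfp286 averaged 15.8 ± 1.04 CPM at 12 months and 21.3 ± 0.567 CPM at P28 in knockout, and 15.4 ± 0.590 CPM at 12 months and 23.6 ± 2.91 CPM at P28 in wild type (SD, n = 3 each). Neither gene overlapped between ages in either genotype, and both passed with the trends removed as well.

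**Figure D5:**
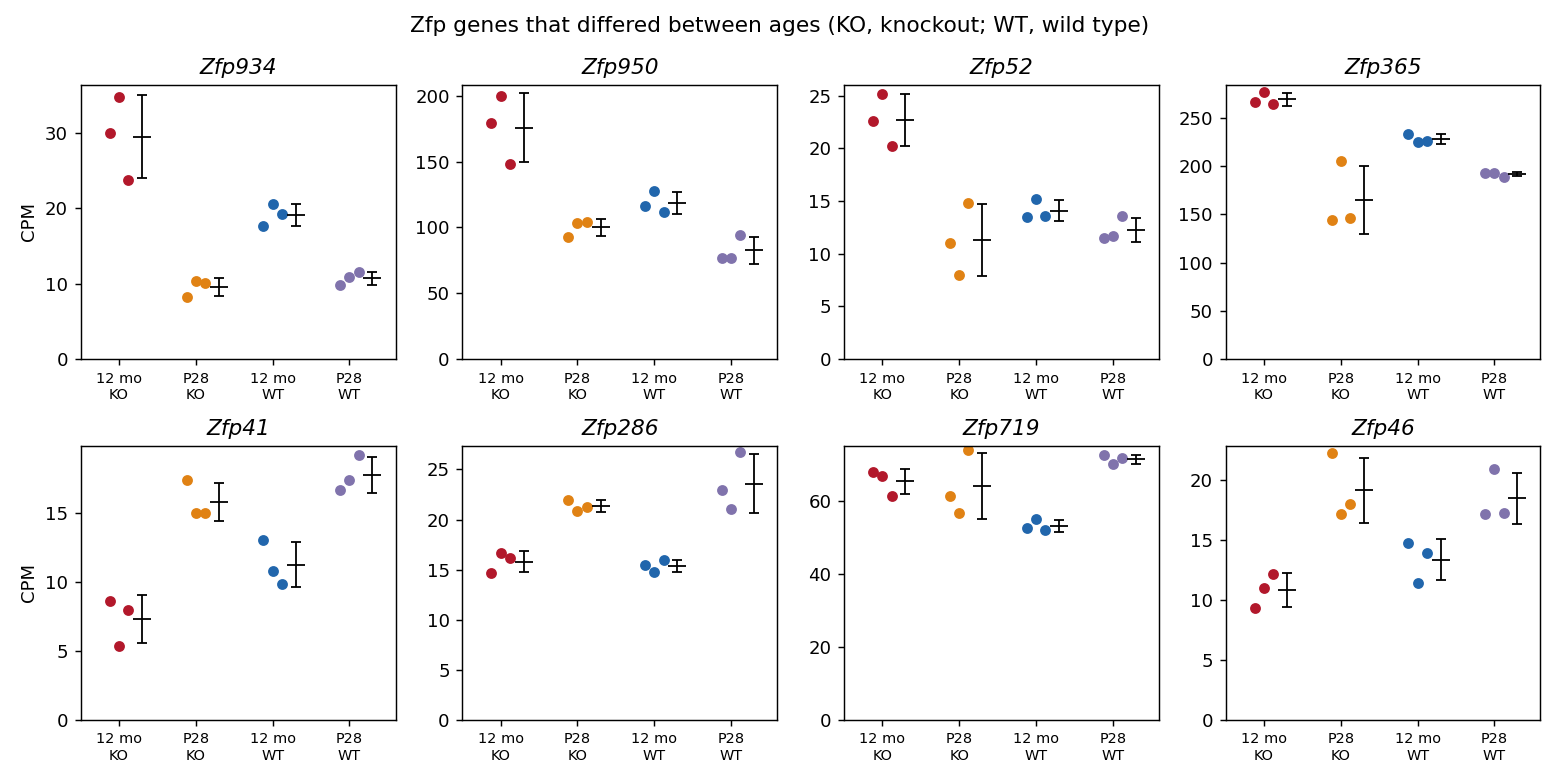
CPM of 8 Zfp genes in each library (points), with the mean and SD of 3 libraries (bars), for 12-month knockout, P28 knockout, 12-month wild type and P28 wild type. Zfp934 and Zfp950 are higher and Zfp41 and Zfp286 lower at 12 months in both genotypes, while Zfp52 and Zfp365 passed in knockout only and Zfp719 in wild type only; the difference between genotypes did not pass for any of them.

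Further members changed with age in knockout. Zfp52 rose by 0.98 ± 0.18 (limma adjusted p = 0.00232), Zfp677 by 0.94, Zfp708 by 0.92 and Zfp758 by 0.76, and 95.6% of the words of Zfp708 occur elsewhere. Zfp365, which takes part in shaping neurons, was at 267, 277 and 264 CPM at 12 months and 144, 206 and 146 CPM at P28 in knockout, without overlap (0.72 ± 0.11, limma adjusted p = 0.00111). In wild type Zfp365 was at 234, 225 and 226 CPM at 12 months and 193, 193 and 189 CPM at P28, also without overlap, and did not pass (0.25, adjusted p = 0.255). Zfp46, Zfp787, Zfp61, Zfp704 and Zfp282 fell in knockout, at log2 fold changes from -0.77 to -0.50. In wild type Zfp719 (-0.42, adjusted p = 0.0238) and Zfp59 (-0.38, adjusted p = 0.0365) fell, of which Zfp59 shares 65.1% of its words.

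The 83 age calls in knockout became 52, 54 and 44 without P28 knockout library 1 and 12-month knockout libraries 1 and 2, and 26 in a fit of the 6 knockout libraries alone. The 6 calls in wild type were 32 in a fit of the 6 wild-type libraries alone, 21 and 10 without P28 knockout libraries 2 and 3, and 0 with a sex term. They were 2 or 3 when any wild-type library was left out.

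The silencing machinery that KRAB proteins recruit was followed in a list of 32 corepressor gene names, of which 30 were tested. Tasor stood in the list under its older name Fam208a as well. At P28 2 rose, 6.67% of the list, where 1% of all genes tested did, and none fell. These were Atrx, a chromatin remodeller of heterochromatin, by 0.52 ± 0.11 (limma adjusted p = 0.0373), and Morc3, a silencer of retrotransposons, by 0.49 (adjusted p = 0.0351). None of the 30 passed at P28 once the GC and length trends were taken out, with Atrx at 0.17 (limma adjusted p = 0.227) and Morc3 at 0.38 (limma adjusted p = 0.0903). At 12 months 10 rose and 5 fell, 33.3% and 16.7% of the list, where 16.1% and 23.5% of all genes tested did. Trim28, the scaffold that binds KRAB, was at 36.2, 23.2 and 38.6 CPM in knockout and 55.6, 48.0 and 61.0 CPM in wild type. The groups did not overlap (-0.76 ± 0.18, limma adjusted p = 0.00811).

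Setdb1, the methyltransferase that Trim28 brings, was at 83.6, 73.7 and 88.7 CPM in 12-month knockout and 91.8, 97.2 and 96.6 CPM in 12-month wild type and did not pass (adjusted p = 0.145). Tasor, of the HUSH silencing complex, rose by 0.86 ± 0.16 (limma adjusted p = 0.00332), and Chd3 (-0.85) and Mta1 (-0.75), of the NuRD complex, fell. Of other NuRD genes in the list, Hdac2 rose by 0.47 (adjusted p = 0.0214), and Hdac1 (-0.27), Chd4 (-0.16) and Mta2 (-0.06) did not pass, all named after their values were seen. Ehmt2, a histone H3 methyltransferase, fell by 0.73 on the log2 scale and was at 0.01 with GC and length trends removed. Tasor held 39.0% GC, and Trim28, Chd3, Mta1 and Ehmt2 held 51.1 to 58.4%. For Trim28 and Ehmt2, GC and length were taken from transcripts of 851 and 1359 bases, on which their trend-removed values depend. With the trends removed Trim28 was at -0.47 (limma adjusted p = 0.0668). In that fit 2 of the 30 rose, Mta2 and Kdm1a, named after their values were seen, and none fell. With age in knockout Dnmt3a, a DNA methyltransferase, fell by 1.11 ± 0.12 on the log2 scale (limma adjusted p = 0.000102), and in wild type by 0.54 (adjusted p = 0.0246).

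Promoters in the RefSeq table (GRCm38.p6), from 250 bases before to 50 after the gene start, matched 206 members. Where a gene had more than 1 promoter, the one with the most CpG pairs was kept. The members' promoters held a median of 15 CpG pairs, against 8 over all 27025 promoters. Those 27025 belong to genes of any expression level, while members were chosen as expressed, and promoters of expressed genes alone were not compared. The 95 members that rose at 12 months with a promoter had a median of 12 CpG pairs and 54% GC, and the 16 that fell 26 CpG pairs and 66% GC. The promoters of a riser and a faller on chromosome 17 are shown with CpG pairs in capitals, as the extremes of CpG content among 4 looked up, of which Zfp677 was the only riser. The faller Zfp692 held 17 CpG pairs and 57.7% GC, close to Zfp677, and the faller Zfp637 held 35 and 68%.
Zfp677 promoter (rose; chr17:21383498-21383797, plus strand): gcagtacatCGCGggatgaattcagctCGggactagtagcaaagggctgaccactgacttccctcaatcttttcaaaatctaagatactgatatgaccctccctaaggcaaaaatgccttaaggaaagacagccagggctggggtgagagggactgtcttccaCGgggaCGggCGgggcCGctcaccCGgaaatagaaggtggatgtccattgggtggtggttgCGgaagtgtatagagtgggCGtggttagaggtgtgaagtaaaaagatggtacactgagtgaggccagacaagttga
Zfp523 promoter (fell; chr17:28177168-28177467, plus strand): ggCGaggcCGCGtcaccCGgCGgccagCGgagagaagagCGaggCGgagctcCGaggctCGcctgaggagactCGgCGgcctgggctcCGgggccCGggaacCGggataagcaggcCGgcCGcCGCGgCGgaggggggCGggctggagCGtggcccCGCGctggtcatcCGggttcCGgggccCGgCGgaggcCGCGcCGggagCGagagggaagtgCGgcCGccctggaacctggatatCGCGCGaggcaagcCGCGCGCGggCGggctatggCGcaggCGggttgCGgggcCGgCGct
The Zfp677 promoter held 10 CpG pairs and 52% GC and that of Zfp523 47 and 79%. Motifs were searched as exact letters on both strands. The ETS-type CCGGAAG was found in 49 of 206 member promoters (23.8%) and in 9.39% of all promoters, in 25 of the 95 that rose (26.3%) and in 4 of the 16 that fell (25.0%). The NRF1 motif was in 3.40% of member promoters and 1.01% of all, and the YY1 motif in 1.94% and 0.729%. A match describes letters in this window and no more.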

How the data were processed

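Poly(A) RNA of mouse retina was sequenced as stranded paired-end libraries. Per the submitters' processing notes, the authors quantified reads with kallisto 0.45.0 against Ensembl 102. Per the series text, the authors summed them to genes by tximport 1.30.0 and used edgeR 4.0.3 for TMM normalization. The series text names a human genome, but the identifiers are mouse. The gene values used are a deposited signal, CPM scaled by the authors' TMM factors, not counts. The transcript values are deposited RPKM, and how the authors made them is not stated; they gave length-corrected levels and the main transcript, whose GC comes from GENCODE M21.

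The test was limma 3.58.1 (R 4.3.3) with 4 group means and a trend, applied to log2(CPM + 1) of genes at 1 CPM or more in at least 3 libraries, with Benjamini-Hochberg adjustment at 0.05. Fold changes are on that scale and understate those of low genes. GC and length trends were splines of 5 degrees of freedom per library. Fingers were found in translated GENCODE coding sequence, not RefSeq proteins, and KRAB boxes with a profile of 40 residues (pyhmmer 0.12.3, E under 1e-05). Shared words are 31-base words found in other genes' transcripts. The steps were tested on simulated data.

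Members, role lists and corepressors were chosen with earlier results of these data known, so lists are described by counts. Named are the 8 highest by mean CPM, up to 6 rises and 6 falls per comparison that passed without overlap, members of the role lists and up to 4 corepressors per comparison. Setdb1 and Trim28 were added at 12 months as direct partners of KRAB, after their values were seen. Alternatives were other pseudocounts, filters, scalings, RPKM, trend removal, sex terms, a replicate block and each library left out. Python 3.11.15 and matplotlib 3.10.9 served for the summaries and plots.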

Additional observations from a re-analysis of the deposited data

How the results depend on the processing

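The number of members called depended on the handling of GC content, on sex and on single libraries. With GC and length trends removed, 9, 8, 0, 52 and 15 members passed in knockout against wild type at P28 and 12 months, the difference of these effects, and 12 months against P28 in knockout and wild type, where 3, 127, 0, 83 and 6 passed on the deposited values. Adding a replicate block to that gave 3 at 12 months and 45 with age in knockout, and adding a sex term gave 0 at P28, 0 at 12 months and 30 with age in knockout. The 8 libraries without high Xist alone, a setting chosen after seeing the data like the pair just named, gave 0, 69, 51 and 0 in the order above without the difference. With a sex term on the deposited values, 0 passed at P28 and 0 with age in wild type. A filter of 5 CPM gave 5 at P28 and 1 for the difference, and no filter gave 0 at P28. A fit of the compared groups alone gave 0 at P28, 26 with age in knockout and 32 with age in wild type. Replicate numbers did not pair libraries: deviations from the group means of same-numbered libraries correlated at -0.33 to 0.31. The replicate block gave 1 call at P28 and otherwise stayed within 1.5 times. Leaving out each library gave 0 to 18, 65 to 153, 0 to 70, 44 to 108 and 2 to 21 calls in the same order.

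Of 2240 values of 80 named results under 28 settings, 1822 kept direction and side of the threshold, 405 kept direction only and 13 turned sign. The 13 were all knockout against wild type at 12 months with GC and length trends removed: Ehmt2 at 0.0082, Zfp148 at -0.083, Zfp282 at 0.069, Zfp719 at -0.035 and Zfp787 at 0.23, the same with a replicate block, and with a sex term Zfp282 at 0.085, Zfp719 at -0.031 and Zfp787 at 0.31. The cause was not tested. With 3 libraries a group and sex uneven between the groups, sex and genotype cannot be fully told apart.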
